A study of Homo sapiens with 8 samples.

Results

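The 10 genes described here encode the 7 insulin-like growth factor (IGF) binding proteins IGFBP1 to IGFBP7, the receptors IGF1R and INSR, and IRS2, an adaptor that both receptors phosphorylate. They were chosen by name from the 27946 genes of the table, with 1 transcript for each, that of the highest mean level. The libraries are of EA.hy926, an immortalized line made by fusing umbilical vein endothelial cells with cells of a lung carcinoma. From these cells a CRISPR/Cas9 ribonucleoprotein had removed either E2, an enhancer that drove a reporter gene in endothelial cells, or SE12313-b, a piece of the same super-enhancer (SE12313, chromosome 16) without such activity. RNA of 3 lines without E2 (ΔE2), of 3 lines without SE12313-b (ΔSE12313-b) and of EA.hy926 control cells (2 libraries) was sequenced after removal of ribosomal RNA. Each deleted line is 1 clone grown from a single cell, whereas the control is described only as the EA.hy926 line, and whether the control cells had received guide RNA is not stated for this experiment. Against the control, a deletion therefore cannot be told apart from growth from a single cell or, if the control lacked it, from transfection. All cells were kept in high-glucose medium with serum. The question put to the values was how the genes of this axis compare between each deletion and the control, and between both deletions.

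IGF1 and IGF2 are secreted peptides that act through IGF1R, a tyrosine kinase closely related to the insulin receptor INSR. The binding proteins hold the IGFs in the extracellular fluid, and proteases that cut them release the peptides. IGFBP7 binds IGFs weakly and is an abundant product of vascular endothelium. Both receptors phosphorylate IRS1 and IRS2, which recruit PI3K and so activate AKT, and AKT keeps FOXO factors out of the nucleus. IGFBP1, IRS2 and INSR are textbook targets that FOXO factors induce when insulin is low.

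The INSR transcripts in the table, NM_000208 and NM_001079817, differ by exon 11, which is present in isoform B of the receptor and absent from isoform A. Its 36 bases lie at chr19:7150508-7150543 on the minus strand of GRCh37, the build of the table. They are shown because INSR had the lowest adjusted p among the members in both deletions. Capitals mark exon 11 and lower case the 15 bases of exon on each side.
INSR exon 11: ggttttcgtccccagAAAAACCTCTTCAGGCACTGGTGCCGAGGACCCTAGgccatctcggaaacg

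In the table, reads of the transcript with exon 11 and reads of the one without it were equal in 7 of the 8 libraries, and 1 read more was listed for the former in ΔE2 replicate 2, of 2943 reads in all. Reads of 75 bases are longer than these 36 bases, so a full-length read on exon 11 also covers exon that both transcripts share. Near-equal reads therefore cannot show how much of INSR carries exon 11. How reads were assigned to overlapping transcripts is not given in the sources used here, and the longer transcript of IGF1R had fewer reads than the shorter one in 7 of 8 libraries, so no isoform share was derived from these values.

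The 250 bases before the start of each kept transcript were searched on both strands for GTAAACA, the core motif of FOXO factors, and for CAAAACA, the core of the insulin response element known from IGFBP1. The former was found in 2 of the 10 genes, INSR and IGFBP6, and the latter in 2, IGFBP1 and IRS2. Over the windows of all 27870 genes that could be read, 2.79% held GTAAACA and 4.65% held CAAAACA. The windows with a match are shown because they set genes with many reads (INSR, IGFBP6) beside genes with hardly any (IGFBP1, IRS2). They are written 5′ to 3′ on the strand of the gene, with the match in capitals, which reads as its reverse complement in INSR and IRS2.
INSR, chr19:7294314-7294563, minus strand: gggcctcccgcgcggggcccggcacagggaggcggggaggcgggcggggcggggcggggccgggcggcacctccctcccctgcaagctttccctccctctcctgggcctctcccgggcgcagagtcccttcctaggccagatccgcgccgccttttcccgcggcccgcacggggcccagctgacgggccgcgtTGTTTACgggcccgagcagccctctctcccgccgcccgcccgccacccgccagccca
IGFBP6, chr12:53491186-53491435, plus strand: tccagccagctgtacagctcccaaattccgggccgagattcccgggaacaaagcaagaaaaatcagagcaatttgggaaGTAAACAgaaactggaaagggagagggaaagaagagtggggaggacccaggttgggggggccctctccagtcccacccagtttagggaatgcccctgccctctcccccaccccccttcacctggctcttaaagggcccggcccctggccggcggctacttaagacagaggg
IGFBP1, chr7:45927768-45928017, plus strand: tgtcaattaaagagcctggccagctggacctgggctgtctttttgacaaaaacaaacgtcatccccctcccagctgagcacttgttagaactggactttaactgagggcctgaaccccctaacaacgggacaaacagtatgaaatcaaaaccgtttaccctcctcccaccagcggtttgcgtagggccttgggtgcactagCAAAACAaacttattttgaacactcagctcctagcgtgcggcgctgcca
IRS2, chr13:110438915-110439164, minus strand: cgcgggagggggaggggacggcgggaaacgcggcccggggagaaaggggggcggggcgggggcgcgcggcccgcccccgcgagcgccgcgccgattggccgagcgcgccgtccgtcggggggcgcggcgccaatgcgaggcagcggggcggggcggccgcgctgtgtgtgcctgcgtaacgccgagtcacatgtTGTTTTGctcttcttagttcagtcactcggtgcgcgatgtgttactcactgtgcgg

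The match began 57 bases before the start in INSR, 171 in IGFBP6, 49 in IGFBP1 and 56 in IRS2. The windows also differed in CpG dinucleotides, from 6 in IGFBP6 to 48 in IGF1R, against a median of 11 over all genes and 17 over the genes tested. IGFBP6, an abundant transcript, had the fewest of the 10, whereas IRS2 with its few reads had 41. A match of these letters is a description of the window and not evidence of a bound factor.

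Values are FPKM (fragments per kilobase of transcript, scaled to the reads of the library), and the reads behind them were recovered from the steps between values. Libraries held from 12067557 to 19101149 reads. Testing with limma on log2(FPKM + 0.1) was limited to the 13790 genes that reached 0.5 FPKM in 2 libraries or more. A differentially expressed gene (DEG) had to change by at least 2-fold with a Benjamini-Hochberg adjusted p under 0.05. The control libraries differed little more than counting noise allows (chi-square per degree of freedom 1.19, against 4.00 to 22.9 between clones), so they may be technical repeats, and p values then rest mainly on the spread between clones. The share of reads that fell on the kept transcripts was 64.2% and 64.7% in the controls and 70.0% to 78.4% in the clones. Reads that fell only on other transcripts of a gene are not in this share. The median log2 fold change of all genes tested was 0.14 in ΔE2, 0.27 in ΔSE12313-b and −0.11 between the deletions. Of 10 endothelial markers, CLDN5 was at 0 in all libraries and 7 had a mean FPKM of at least 0.5 in the control. Of 8 epithelial markers, 3 keratins (KRT7, KRT8 and KRT18) passed that level in each group, and the sum over the list was 361 to 363 FPKM in the controls, 1084 to 1210 in ΔE2 and 811 to 1069 in ΔSE12313-b. Nearly all of this sum came from these 3 keratins, so it does not stand for the list. EPCAM, on 12 reads or fewer per library, had a mean of 0.3985 FPKM without a deletion. Its mean was lower with either one (0.186 for ΔE2, 0.0497 for ΔSE12313-b). KRT19 and SFTPB, without reads in the controls, had group means of at most 0.0877 FPKM. CDH1 and NKX2-1 had no reads in any library. The higher sum of keratins went with both deletions, and its part in the changes below was not tested. ADAMTS18, the gene that SE12313 contacts, was listed at 0.682 and 0.859 FPKM in the controls and at 0.087 to 0.232 in the clones.

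Of the 10 genes, 5 passed the filter on level (IGFBP4, IGFBP6, IGFBP7, IGF1R and INSR), and 5 held so few reads that they were not tested (IGFBP1, IGFBP2, IGFBP3, IGFBP5 and IRS2). By limma with Benjamini-Hochberg adjustment, the ΔE2 clones had INSR lower and IGFBP4 and IGFBP6 higher than in the control. Over all genes tested, 34.7% were higher and 19.4% lower in ΔE2 at an adjusted p under 0.05, so 2 higher and 1 lower of 5 is close to the background. None of the 5 was a DEG (0 of 5 by limma and 0 by voom on the recovered reads, with 3 at an unadjusted p under 0.05), against 11.2% of all genes as upregulated and 8.36% as downregulated DEGs. In ΔSE12313-b, INSR was lower and none was higher at an adjusted p under 0.05, where 43.0% of all genes were higher and 16.4% lower. Again 0 of 5 were DEGs by limma and by voom, with 1 at an unadjusted p under 0.05, and the background was 14.7% upregulated and 7.83% downregulated. Between the deletions 0 of the 5 had an adjusted p under 0.05 by limma (3 had an unadjusted p under 0.05), against 26.0% of all genes, and 0 were DEGs by limma or voom, against 4.23%. The median log2 fold change of the 5 was 0.27 in ΔE2, 0.28 in ΔSE12313-b and −0.04 between the deletions.

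**Figure D1:**
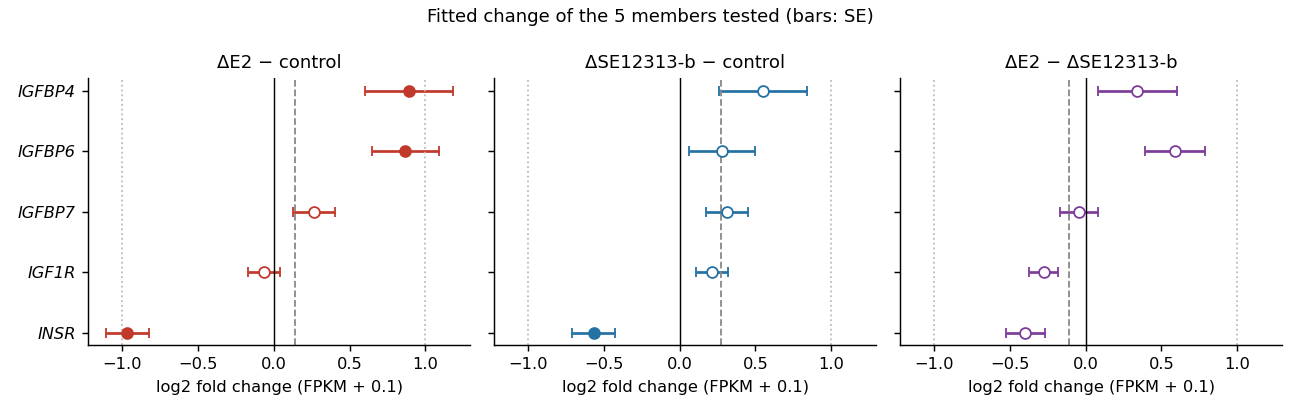
Fitted log2 fold change with its SE for the 5 genes tested, in ΔE2 minus control, ΔSE12313-b minus control and ΔE2 minus ΔSE12313-b. Filled points have an adjusted p under 0.05, the dashed line is the median of all genes tested (0.14, 0.27 and −0.11) and dotted lines mark a 2-fold change. INSR lies left of 0 in all panels, and IGFBP4 and IGFBP6 lie nearest to the 2-fold line on the right in ΔE2.

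INSR (chr19:7112266-7294313, minus strand), the receptor for insulin, was listed at 3.68 and 4.11 FPKM in the control libraries. The ΔE2 clones had 1.87, 2.19 and 1.80 FPKM and the ΔSE12313-b clones 2.69, 2.31 and 2.81. All 6 clones were below both controls, and all ΔE2 clones were below all ΔSE12313-b clones. These values rest on 228 to 461 reads per library. INSR fell by 0.96 on the log2 scale in ΔE2 (SE 0.14, limma adjusted p = 0.000849), or 1.95-fold, and by 0.57 in ΔSE12313-b (SE 0.14, limma adjusted p = 0.00977), or 1.48-fold. Relative to the median of all genes the fall was 1.10 in ΔE2 and 0.84 in ΔSE12313-b on the log2 scale, and with the libraries centred on their median ratio INSR became a DEG in ΔE2 (−1.12, limma adjusted p = 0.00043). It was a DEG there also without control replicate 1 or ΔE2 replicate 2 (−1.04 in both), and the 5 genes then held 1 DEG in place of 0. In ΔSE12313-b the adjusted p of INSR by limma rose to 0.0798 without control replicate 2 and to 0.0517 with the controls averaged into 1 library. Between the deletions INSR was 0.40 lower in ΔE2 (SE 0.13, limma adjusted p = 0.0543), which missed the threshold, and 5 of 21 alternatives brought it past.

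IGF1R (chr15:99191768-99507759, plus strand), the receptor that IGF1 and IGF2 activate, had 5.48 and 5.21 FPKM in the controls. Its FPKM was 4.94, 4.71 and 5.73 in ΔE2, whereas the ΔSE12313-b clones had 6.51, 6.12 and 6.02. The reads behind these levels numbered 767 to 1278. The ΔE2 clones overlapped the controls, and all ΔSE12313-b clones were above both. Its log2 fold change was −0.06 in ΔE2 (SE 0.11, limma adjusted p = 0.645) and 0.21 in ΔSE12313-b (SE 0.11, limma adjusted p = 0.119), a value that turned to −0.07 with the libraries centred on their median ratio. The ratio of IGF1R to INSR FPKM was 1.27 and 1.49 in the controls, 2.16 to 3.18 in ΔE2 and 2.14 to 2.65 in ΔSE12313-b, so it was higher in all 6 clones than in either control. This ratio does not depend on the scaling of a library.

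**Figure D2:**
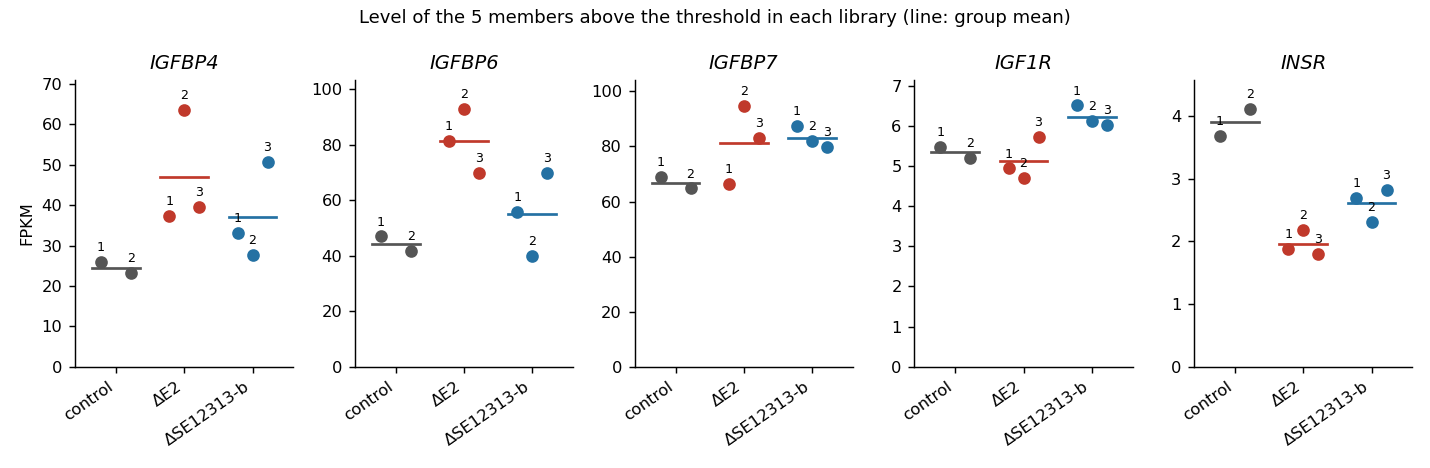
FPKM of the 5 genes above the filter in each library, with the replicate number above each point and the group mean as a line. The vertical axis starts at 0 and differs between panels. INSR is lower in all 6 clones than in both controls, and ΔE2 replicate 2 and ΔSE12313-b replicate 3 carry the highest IGFBP4 and IGFBP6 of their groups.

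Transcripts of 3 binding proteins were abundant, and their order per length was the same by group means in the control and in both deletions, IGFBP7 before IGFBP6 before IGFBP4. In the control their means were 66.9, 44.3 and 24.5 FPKM, and the libraries of neighbouring genes did not overlap. In ΔE2, IGFBP7 and IGFBP6 had means of 81.4 and 81.3 FPKM with overlapping clones. In ΔSE12313-b it was IGFBP6 (55.1) and IGFBP4 (37.1) that overlapped. Among all genes tested, the percentile of level in the control was 95.9 for IGFBP7, 93.1 for IGFBP6 and 86.2 for IGFBP4, against 46.0 for IGF1R and 37.7 for INSR.

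IGFBP4 (chr17:38599676-38613982, plus strand), a binding protein that the protease PAPPA cuts, had 25.9 and 23.2 FPKM in the controls. The ΔE2 clones had 37.4, 63.6 and 39.6 FPKM and the ΔSE12313-b clones 33.1, 27.6 and 50.6. All 6 clones were above both controls, and the clones of both deletions overlapped. IGFBP4 rose by 0.89 on the log2 scale in ΔE2 (SE 0.29, limma adjusted p = 0.032), or 1.86-fold, and its log2 fold change in ΔSE12313-b was 0.55 (SE 0.29, limma adjusted p = 0.137). The call in ΔE2 was lost without control replicate 1 (0.0992), without control replicate 2 (0.154) and without ΔE2 replicate 2 (0.0666, values of the limma adjusted p). Without ΔE2 replicate 1 the rise was 1.03 (limma adjusted p = 0.0343), which made IGFBP4 a DEG. The call was also lost with the libraries centred on their median ratio (log2 fold change 0.73, limma adjusted p = 0.0655), with quantile normalization (0.58, limma adjusted p = 0.125), with averaged controls (limma adjusted p = 0.126) and without the trend (limma adjusted p = 0.0507).

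IGFBP6 (chr12:53491436-53496128, plus strand), which binds IGF2 more tightly than IGF1, had 46.9 and 41.7 FPKM in the controls. Among the ΔE2 clones 81.3, 92.8 and 69.9 FPKM were measured, and among the ΔSE12313-b clones 55.8, 39.9 and 69.7. The ΔE2 clones were above all other libraries, and ΔSE12313-b replicate 2 lay below both controls. IGFBP6 rose by 0.87 on the log2 scale in ΔE2 (SE 0.22, limma adjusted p = 0.0113), or 1.82-fold, a call that was lost without control replicate 2 (limma adjusted p = 0.0831), with the controls averaged into 1 library (0.0629) and with quantile normalization (log2 fold change 0.52, limma adjusted p = 0.0607). In ΔSE12313-b its log2 fold change was 0.28 (SE 0.22, limma adjusted p = 0.301), close to the median of all genes (0.27), and it turned to −0.01 with the libraries centred. Without ΔSE12313-b replicate 2 it was 0.49 with a limma adjusted p of 0.0349. Between the deletions IGFBP6 was 0.59 higher in ΔE2 (SE 0.20, limma adjusted p = 0.0623), and 5 of 21 alternatives took this past the threshold, centring among them (0.72, limma adjusted p = 0.038).

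IGFBP7 (chr4:57897237-57976551, minus strand) had 69.0 and 64.8 FPKM in the controls. The clones had 66.3, 94.7 and 83.2 FPKM where E2 was deleted, and 87.5, 81.9 and 79.7 where SE12313-b was. ΔE2 replicate 1 lay between the controls, and all ΔSE12313-b clones were above them. The log2 fold change was 0.27 in ΔE2 (SE 0.14, limma adjusted p = 0.134) and 0.31 in ΔSE12313-b (SE 0.14, limma adjusted p = 0.0841), and quantile normalization turned both, to −0.08 and −0.19. The second IGFBP7 transcript of the table, NM_001253835, which shares most of its exons with NM_001553, held 56.7% to 66.6% as many reads, lowest in ΔE2 replicates 2 and 3 (56.7% and 58.5%). With every transcript tested, NM_001253835 passed the threshold in ΔSE12313-b (log2 fold change 0.32, limma adjusted p = 0.0239). The kept transcript NM_001553 did not in that fit (0.31, limma adjusted p = 0.0715). In ΔE2 NM_001253835 had 0.16 (limma adjusted p = 0.215).

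**Figure D3:**
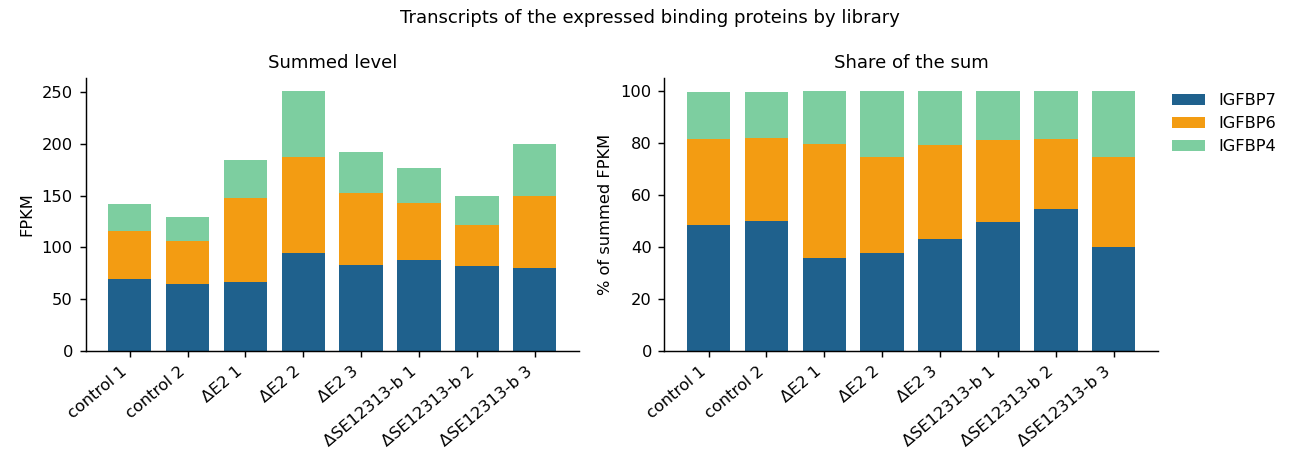
Left, FPKM of IGFBP7, IGFBP6 and IGFBP4 stacked for each library; right, each as a percentage of the summed FPKM of all 7 binding proteins. Bars start at 0. IGFBP6 holds 32.1% and 33.0% of the sum in the controls and 36.3% to 43.9% in ΔE2, where IGFBP7 holds 35.8% to 43.2% against 48.6% and 49.8%.

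Summed over the 7 binding proteins, the level was 136 ± 8.52 FPKM in the control (SD, n = 2), 210 ± 36.1 in ΔE2 (SD, n = 3) and 175 ± 25.4 in ΔSE12313-b (SD, n = 3). Shares of this sum do not depend on the scaling of a library. IGFBP7 held 48.6% and 49.8% of it in the controls, and all ΔE2 clones were lower, from 35.8% to 43.2%. IGFBP6 held 33.0% and 32.1% in the controls and more in all ΔE2 clones, from 36.3% to 43.9%. In ΔSE12313-b both shares overlapped those of the control, with 39.8% to 54.8% for IGFBP7 and 26.7% to 34.8% for IGFBP6. IGFBP4 held 18.2% and 17.8% in the controls and more than either in all 6 clones, from 18.5% to 25.3%.

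The spread between clones was wide for IGFBP4, with a coefficient of variation of 30.9% in ΔE2 and 32.4% in ΔSE12313-b, against 10.5% and 10.1% for INSR. ΔE2 replicate 2 was the highest ΔE2 clone in 4 of the 5 genes tested, all but IGF1R. ΔSE12313-b replicate 3 was the highest of its group in 3, IGFBP4, IGFBP6 and INSR. Of all genes tested, 36.3% and 36.1% were highest in these clones. The same clones were highest for 8 of 8 and 7 of 8 of the endothelial markers that passed the filter. CDH5 (VE-cadherin, an endothelial junction protein) was at 141 FPKM in ΔE2 replicate 2 against 72.5 and 83.8 in the other ΔE2 clones, and at 92.8 in ΔSE12313-b replicate 3 against 74.8 and 64.3. The endothelial sum was 492 and 484 FPKM in these clones, and 341 to 396 in all other libraries. Its part in the spread of IGFBP4 and IGFBP6 was not tested, and in bulk RNA fewer cells of a type and less RNA per cell cannot be told apart.

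Reads of IGFBP3 (chr7:45951844-45960871, minus strand), the main IGF carrier of blood plasma, were few but unevenly spread. The control libraries held 7 and 10 reads (0.212 and 0.318 FPKM), the ΔE2 clones 3, 4 and 2 and the ΔSE12313-b clones 0, 0 and 0. No clone reached either control. Per library read, IGFBP3 in ΔE2 was 0.263 times that in the control, with a 95% exact interval for counting error from 0.103 to 0.624. Against a floor of 3 reads per library, IGFBP3 was at least 3.59-fold lower in ΔSE12313-b. The filter kept it out of the tests, and in a fit without the filter its adjusted p by limma was 0.00236 in ΔE2, 0.000169 in ΔSE12313-b and 0.0199 between the deletions. In that fit all ΔSE12313-b values are the added 0.1 FPKM alone, without spread. These p values do not cover counting error at such low reads.

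IGFBP1 (chr7:45928018-45933267, plus strand), which the liver secretes in fasting, had 1 read in control replicate 2 and 0 in the other libraries. It lies 18.6 kb from IGFBP3. No read was listed for IGFBP2 (chr2:217498127-217529158, plus strand) or for its neighbour IGFBP5 (chr2:217536828-217560272, minus strand), 7.67 kb away, in any library. A count of 0 allows up to 3 reads, which is 0.13 FPKM for IGFBP2 and 0.0296 FPKM for IGFBP5 in ΔE2. IRS2 (chr13:110406184-110438914, minus strand) had 3 and 1 reads in the controls, 2, 1 and 1 in ΔE2 and 2, 3 and 5 in ΔSE12313-b, a spread within counting error (ratio to control 1.32 in ΔSE12313-b, 95% exact interval 0.382 to 5.78).

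The other genes of the axis were taken from 6 lists with 56 genes, of which 46 were tested. At an adjusted p under 0.05, 10 were higher and 14 lower in ΔE2, and 15 higher and 7 lower in ΔSE12313-b, with median log2 fold changes of −0.04 and 0.09 against 0.14 and 0.27 over all genes. Of all genes tested 34.7% were higher and 19.4% lower in ΔE2, and 43.0% higher and 16.4% lower in ΔSE12313-b. DEGs among them numbered 9 in ΔE2 (3 upregulated and 6 downregulated), 7 in ΔSE12313-b (4 and 3) and 3 between the deletions, where all 3 were lower in ΔE2. The shares of all genes tested were 11.2% upregulated and 8.36% downregulated in ΔE2, 14.7% and 7.83% in ΔSE12313-b, and 4.23% between the deletions with both directions together, so the counts of DEGs are not set apart from the background here. Without control replicate 1 the ΔE2 count was 5, and without ΔE2 replicate 2 the count between the deletions was 1. Both deletions were set against the same controls.

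None of the listed ligands passed the filter. IGF1 and INS (insulin) had no reads in any library, nor had the insulin receptor-related receptor INSRR, and IGF2 was at 0.07 FPKM or below. IGFALS, the acid-labile subunit of the plasma IGF complex, was at 0.081 FPKM or below. IGF2R, the receptor that clears IGF2 and carries lysosomal enzymes, had 7.43 and 7.37 FPKM in the controls, 4.74, 4.33 and 4.81 in ΔE2 and 6.50, 7.62 and 5.99 in ΔSE12313-b. All ΔE2 clones were below all other libraries. IGF2R fell by 0.67 on the log2 scale in ΔE2 (SE 0.12, limma adjusted p = 0.00197). In ΔSE12313-b its log2 fold change was −0.15 (SE 0.12, limma adjusted p = 0.302), which with the libraries centred was −0.44 with a limma adjusted p of 0.0149. Between the deletions IGF2R was 0.52 lower in ΔE2 (SE 0.10, limma adjusted p = 0.00978).

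Among the 5 genes for proteases of the binding proteins and for inhibitors of these proteases, 4 were lower in ΔE2 and 2 in ΔSE12313-b, where 19.4% and 16.4% of all genes were lower. The median log2 fold change was −1.40 and −0.72. STC1, a secreted glycoprotein that inhibits the protease PAPPA, was at 295 and 301 FPKM in the controls, at 5.004, 7.74 and 5.08 in ΔE2 and at 8.34, 9.84 and 22.6 in ΔSE12313-b. It fell 50.4-fold in ΔE2 (log2 fold change −5.66, SE 0.39, limma adjusted p = 1.84e-05) and 24.1-fold in ΔSE12313-b (−4.59, SE 0.39, limma adjusted p = 4.22e-05). PAPPA2, which cuts IGFBP3 and IGFBP5, was at 19.4 FPKM in both controls, at 3.29 to 3.91 in ΔE2 and at 2.71 to 3.65 in ΔSE12313-b. Its fall was 5.26-fold (limma adjusted p = 8.72e-06) and 5.77-fold (limma adjusted p = 5.41e-06). HTRA1, a secreted serine protease that cuts IGFBP5, had 5.83 and 5.58 FPKM in the controls, 1.56, 3.18 and 1.85 in ΔE2, and 4.22, 5.15 and 6.86 in ΔSE12313-b. It fell by 1.40 on the log2 scale in ΔE2 (limma adjusted p = 0.00522), and its log2 fold change in ΔSE12313-b was −0.10 (limma adjusted p = 0.784). PAPPA, the protease of IGFBP4, fell by 0.57 in ΔE2 (limma adjusted p = 0.0391), and STC2 missed the threshold in both deletions. The calls of STC1 in both deletions and of HTRA1 in ΔE2 held under all 20 alternatives run for them.

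**Figure D4:**
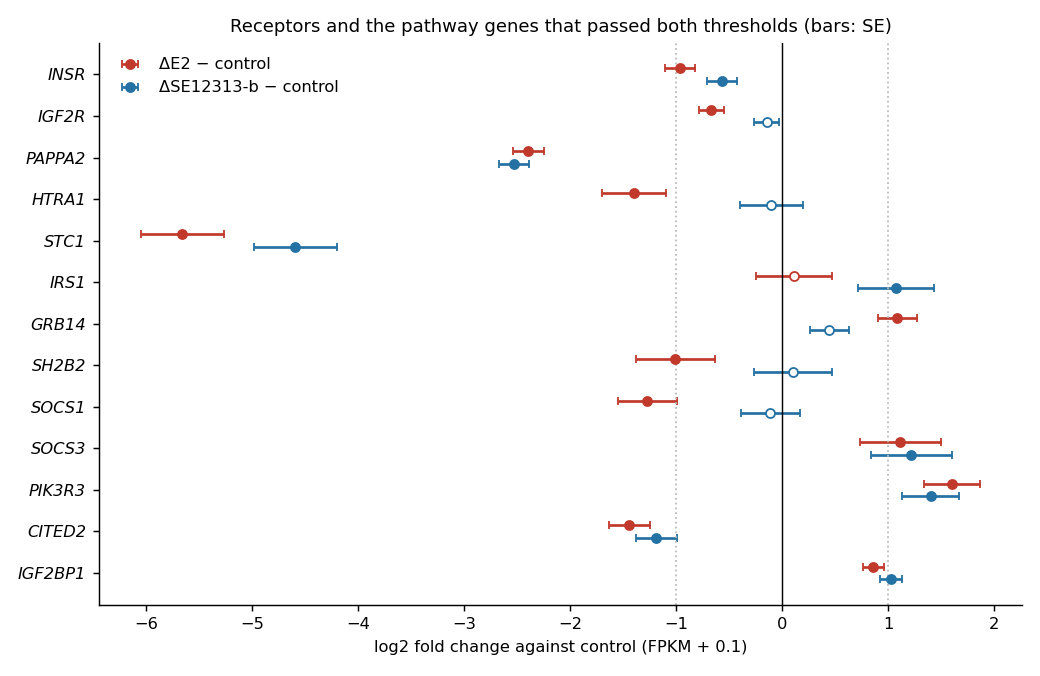
Log2 fold change against control with its SE for INSR, IGF2R and the 11 listed genes of the axis that were DEGs in any comparison, in ΔE2 and ΔSE12313-b. Filled points have an adjusted p under 0.05 and dotted lines mark a 2-fold change. STC1 lies far left in both deletions (−5.66 and −4.59), and HTRA1, SH2B2 and SOCS1 lie left of −1 in ΔE2 and near 0 in ΔSE12313-b.

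Of 12 adaptors and brakes at the receptors 11 were tested, and 5 were higher and 3 lower in ΔE2, against 4 and 0 in ΔSE12313-b. The shares of all genes were 34.7% and 19.4% in ΔE2 and 43.0% and 16.4% in ΔSE12313-b. SOCS3, a cytokine-induced inhibitor of signalling, had 1.67 and 1.97 FPKM in the controls, 2.59 to 5.46 in ΔE2 and 2.79 to 6.19 in ΔSE12313-b. Its rises of 1.11 and 1.21 on the log2 scale (limma adjusted p = 0.0386 and 0.025) lost their calls in 12 and 8 of 20 alternatives, without either control replicate among them (limma adjusted p from 0.0802 to 0.175). SOCS1, of the same family, had 2.73 and 2.39 FPKM in the controls, 1.30, 0.626 and 1.21 in ΔE2 and 2.13 to 2.57 in ΔSE12313-b. It fell by 1.27 in ΔE2 (limma adjusted p = 0.00593), a call lost without control replicate 1 (limma adjusted p = 0.0505) and, by size, without ΔE2 replicate 2 (−0.97). GRB14, an adaptor that blocks the INSR kinase, had 1.80 and 2.43 FPKM in the controls 4.07, 4.24 and 5.43 in ΔE2 and 2.52 to 3.17 in ΔSE12313-b. It rose by 1.08 in ΔE2 (limma adjusted p = 0.00175), and the rise was below 2-fold without control replicate 1 (0.88) or ΔE2 replicate 3 (0.96). IRS1, the other main docking protein of these receptors, had 0.55 and 0.294 FPKM in the controls, 0.328 to 0.594 in ΔE2 and 0.706 to 1.18 in ΔSE12313-b, a rise of 1.07 (limma adjusted p = 0.0325) that lost its call without control replicate 2 (0.71, limma adjusted p = 0.202) and without ΔSE12313-b replicate 1 or 2 (limma adjusted p = 0.0939 and 0.0801). SH2B2, an adaptor of activated receptors, rested on 6 to 28 reads per library, and its fall of 1.01 in ΔE2 (limma adjusted p = 0.0499) was lost in 11 of 19 alternatives, without control replicate 1 (−0.81, limma adjusted p = 0.223) among them. IRS4 had no reads.

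All 17 genes of the chain from PI3K to AKT and mTOR were tested, with 4 higher and 3 lower in ΔE2 and 9 and 3 in ΔSE12313-b, where 34.7% and 19.4%, and 43.0% and 16.4%, of all genes were higher and lower. PIK3R3, a regulatory subunit of PI3K, was the one DEG of this list, with 0.455 and 0.632 FPKM in the controls, 1.57 to 2.47 in ΔE2 and 1.38 to 1.98 in ΔSE12313-b. It rose 3.04-fold in ΔE2 (limma adjusted p = 0.00153) and 2.64-fold in ΔSE12313-b (limma adjusted p = 0.00254). The lowest clone of PIK3R3 was above both controls, which held 28 and 37 reads. With 1 FPKM added in place of 0.1 the rises were 0.89 and 0.75 on the log2 scale, below 2-fold. Of 20 alternatives this was the 1 in which the calls were lost.

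Of 13 FOXO factors and genes they are known to induce 9 were tested, and 0 were higher and 3 lower in ΔE2 by limma, against 1 and 2 in ΔSE12313-b. Among all genes 34.7% were higher and 19.4% lower in ΔE2, and 43.0% and 16.4% in ΔSE12313-b. With limma, 4 and 3 had an unadjusted p under 0.05. FOXO1 had 4.25 and 4.21 FPKM in the controls, 5.31, 8.63 and 5.92 in ΔE2 and 7.92, 6.54 and 11.99 in ΔSE12313-b. Its level was highest in ΔE2 replicate 2 and ΔSE12313-b replicate 3, as were those of IGFBP4 and IGFBP6. It rose by 1.00 in ΔSE12313-b (limma adjusted p = 0.0144), a call lost without either control replicate (limma adjusted p = 0.0711 and 0.0744) and with the libraries centred (0.71, limma adjusted p = 0.0573). The other listed FOXO factors did not rise with FOXO1. FOXO3 was lower in ΔSE12313-b (log2 fold change −0.35, limma adjusted p = 0.0364), with 0.08 in ΔE2 (limma adjusted p = 0.582). FOXO4 had −0.98 in ΔE2 and −0.96 in ΔSE12313-b (limma adjusted p = 0.130 in both). CITED2, a transcriptional coregulator, had 74.6 and 76.1 FPKM in the controls, 20.3 to 33.8 in ΔE2 and 30.1 to 35.2 in ΔSE12313-b. It fell 2.72-fold in ΔE2 (limma adjusted p = 0.000556) and 2.28-fold in ΔSE12313-b (limma adjusted p = 0.00123). Of the FOXO targets among the 10 genes, INSR was lower in both deletions, and IGFBP1 and IRS2 held 0 to 5 reads in every library. Of the 3 IGF2 mRNA-binding proteins, IGF2BP1 had 7.29 and 7.58 FPKM in the controls, 12.6 to 14.1 in ΔE2 and 13.6 to 16.2 in ΔSE12313-b. It rose in both deletions, by 0.86 (limma adjusted p = 0.000279) and 1.03 (limma adjusted p = 8.91e-05), the latter below 2-fold without control replicate 1 (1.00), without ΔSE12313-b replicate 1 or 2 (0.99 and 0.98), and with the libraries centred (0.74).

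The genes around each of the 5 expressed members were compared with the member itself, over tested genes whose middle lay within 5 Mb. The 204 neighbours of INSR had median log2 fold changes of 0.14 in ΔE2 and 0.12 in ΔSE12313-b, against −0.96 and −0.57 for INSR. Those of IGFBP6 (191 genes) had 0.20 and 0.32, and those of IGFBP4 (177 genes) 0.05 and 0.18. The 20 neighbours of IGFBP7 had 0.70 and 0.46, above the 0.27 and 0.31 of IGFBP7, and the 25 neighbours of IGF1R had −0.05 and 0.06.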

How the data were processed

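RNA of 8 EA.hy926 libraries was sequenced as single reads of 75 bases. After trimming with Trim Galore 0.4.4 (Phred cutoff 30), the authors mapped the reads to GRCh37 with STAR 2.5.4b and deposited a table of FPKM for 65572 RefSeq transcripts. The library kit was directional. For their own DEG calls the authors counted reads with featureCounts on Gencode genes, and whether the RefSeq table came from that step, and how it used strand, is not given in the sources used here. Deposited FPKM were used as they are. Each FPKM times transcript length, divided by the step between such values, gave whole reads within 0.1 read for nearly all values. These reads served for depth (7802376 to 13374180 per library on the kept transcripts), floors, intervals and voom. Floors (3 reads per library) and intervals cover counting error only.

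The test was limma 3.58.1 in R 4.3.3 with a trend, 3 groups in 1 model, two-sided, on log2(FPKM + 0.1), which understates changes of low genes. The steps were checked on simulated data. Fold changes are on this scale. Named by rule are all 10 genes, the listed ligands and receptors, and every listed gene of the axis that was a DEG in any comparison. FOXO1, FOXO3, FOXO4, CDKN1B, TSC2, PDPK1, PIK3CA, PAPPA, STC2, IRS4 and ADAMTS18 were named after their values were seen. So were CDH5, ENG, PECAM1, ERG, VWF and TIE1. The members and lists were chosen with earlier results of these data known. Sequences were read from GRCh37. The alternatives were other pseudocounts and filters, centring, quantile normalization, a replicate block, each library left out, averaged controls, no trend, only the groups compared, every transcript, voom, and other thresholds. The use of an adjusted p without a fold threshold was added after seeing the data.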

Additional observations from a re-analysis of the deposited data

Results flagged for a closer look

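The contrast of ΔE2 with ΔSE12313-b, which tests whether both deletions differ from the control by the same amount, passed an adjusted p under 0.05 (limma, Benjamini-Hochberg) for 17 of the 46 listed genes of the axis that were tested (3 higher and 14 lower in ΔE2), against 26.0% of all genes. That share counts both directions together, and the median log2 fold change of all genes tested was itself −0.11. The split by direction is therefore not set against a background. Among the members, 0 of the 5 tested passed by limma, with 3 at an unadjusted p under 0.05, and the other 5 were not tested. IGFBP3, one of the latter, had a limma adjusted p of 0.0199 in a fit without the filter on level, on 9 reads in ΔE2 and 0 in ΔSE12313-b. Of the 17, the 5 that the rule for naming genes covers are described below, and most of these are named because they were DEGs. Some of the rest had lower adjusted p values, all below 2-fold. Among them were CDKN1B (−0.73, limma adjusted p = 0.0013), TSC2 (−0.70, 0.00195), PDPK1 (−0.70, 0.0022) and PIK3CA (−0.66, 0.00223), each lower in ΔE2. How these 4 depend on the processing is not given here. IGF2R was lower in ΔE2 than in ΔSE12313-b by a log2 fold change of −0.52 (limma adjusted p = 0.00978), with all 3 ΔE2 clones below all 3 ΔSE12313-b clones. HTRA1 differed by −1.30 (limma adjusted p = 0.0109), also without overlap of the clones, and SOCS1 by −1.16 (limma adjusted p = 0.0129). GRB14 was higher in ΔE2 by 0.64 (limma adjusted p = 0.0256), a call lost without ΔE2 replicate 3 (limma adjusted p = 0.0821), without ΔSE12313-b replicate 1 (0.0619) or replicate 3 (0.0679), and with the replicate block (0.0575). SH2B2 differed by −1.11 (limma adjusted p = 0.0430) on 6 to 28 reads per library, and the call was lost in 14 of 19 alternatives. The groups are too small for a check of single libraries that stand apart.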

How the results depend on the processing

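Among the 5 genes tested, the fall of INSR in ΔE2 kept its direction and its adjusted p under 0.05 in all 21 alternatives, from −1.12 to −0.73. The number of DEGs among the members in ΔE2, 0, became 1 without the filter on level (IGFBP3), with centring or with quantile normalization (INSR), and 3 at 1.5-fold, and ranged from 0 to 1 with a library left out. In ΔSE12313-b it became 1 without the filter (IGFBP3). With no fold threshold the counts were 3, 1 and 0. Genes of the axis numbered 9, 7 and 3 (ΔE2, ΔSE12313-b, and between them). With a pseudocount of 1 they numbered 4, 3 and 1, at 1.5-fold 16, 11 and 9, and with no fold threshold 24, 22 and 17. Centring gave 4 in ΔSE12313-b, voom gave 5 between the deletions, and an adjusted p under 0.01 gave 0 there. With a library left out the ranges were 5 to 9, 5 to 8 and 1 to 3.

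Directions turned in results that were not called. IGFBP6 in ΔSE12313-b was −0.0081 with centring and −0.23 with quantile normalization, and IGF1R there was −0.0742 and −0.0532. IGFBP7 became −0.0768 in ΔE2 and −0.19 in ΔSE12313-b with quantile normalization. Between the deletions it became 0.0875 with centring, 0.115 with quantile normalization and 0.0976 without ΔE2 replicate 1, and ranged from −0.159 to 0.0976 with a library left out. The causes were not tested.

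Replicate numbers did not pair the samples: same-numbered libraries of both deletions had correlations of 0.107, −0.0804 and −0.073, and not every sample correlated best with its own number. With a replicate block 0 members were DEGs in all 3 comparisons, and the genes of the axis numbered 7, 6 and 2. The limma adjusted p of IGFBP4 in ΔE2 was 0.0927 with the block. Leaving out a control leaves 1 library, which is then assumed to vary like the clones. With 2 control libraries close to counting noise and reads below 20 for IGFBP1, IGFBP3 and IRS2, depth limits what can be said of these genes.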
